A study of Mus musculus with 24 samples.

Results

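The transcription factors examined were Sox9, Sox4, Onecut2, Hhex, Grhl2, Elf3, Ehf, Klf5 and Trp63, which are known as regulators of the bile duct or of epithelial identity. They were taken as the rows with these symbols in 3 tables of FPKM, a level that divides the fragments of a gene by its length and by the total of the library. All 9 were among the 31053 genes listed in the hepatocyte table and the 25876 genes listed in the cholangiocyte table, and 8 of them, all but Trp63, were among the 20729 genes of the Smart-Seq table. The 24 libraries came from livers of wild-type adult BALB/c mice. Primary hepatocytes (labelled Pri-Hep) were purified by a density gradient and by removal of EpCAM-positive cells. Hepatocyte organoids (Hep-Orgs) were grown from such cells in Matrigel, with the Notch inhibitor DAPT and dexamethasone in the long-term medium, and were sequenced at passages P1, P5 and P10. Cholangiocyte organoids (Cho-Orgs) were grown from EpCAM-positive cells in a medium without DAPT or dexamethasone and were sequenced at P0, P5 and P10. Each of these 7 groups held 3 libraries. In addition, Hep-Orgs of the first culture (P0) were picked by shape as grape-like, intermediate or round-like, with 1 library per shape. They were sequenced by Smart-Seq, a method that amplifies full-length cDNA. The paper describes these shapes in a hepatocyte medium before DAPT and dexamethasone were added to it.

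The liver holds 2 epithelial cell types of common embryonic origin, hepatocytes and the cholangiocytes that line the bile ducts. Sox9 and Sox4, proteins with a high mobility group DNA-binding domain, act together in bile duct formation, and Sox9 marks ductal cells in the adult liver. Onecut2 belongs to the CUT homeodomain family with Onecut1 and takes part in the separation of the biliary from the hepatocyte lineage. Hhex is a homeodomain factor required for the liver bud and for normal bile ducts. Grhl2 is a Grainyhead factor that maintains genes of the cell junctions, Elf3 and Ehf are epithelium-specific members of the ETS family, and Klf5 is a zinc-finger factor of proliferating epithelia. Trp63 encodes p63, the p53 relative that defines the basal layer of stratified epithelia such as skin.

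Sequences around the transcription start were available for Elf3, Hhex and Sox4, and those of Elf3 and Hhex are shown. Both factors changed between P5 and P10 of Cho-Orgs, Elf3 downward and Hhex upward. Sox4 also changed between these passages, upward and by less. Each run is 5′ to 3′ on the strand of the gene and covers 250 bases before to 50 bases after the start (RefSeq, GRCm38.p6). The Elf3 run is chr1:135258423-135258722 on the minus strand and the Hhex run is chr19:37434591-37434890 on the plus strand. Capitals mark exact matches, on either strand, to short core motifs of the factor families.
Elf3: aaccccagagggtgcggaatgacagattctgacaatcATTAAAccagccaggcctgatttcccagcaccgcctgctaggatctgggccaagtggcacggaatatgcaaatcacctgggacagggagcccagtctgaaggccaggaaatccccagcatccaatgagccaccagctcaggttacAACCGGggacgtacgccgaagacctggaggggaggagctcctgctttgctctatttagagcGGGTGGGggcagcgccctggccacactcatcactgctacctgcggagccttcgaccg
Hhex: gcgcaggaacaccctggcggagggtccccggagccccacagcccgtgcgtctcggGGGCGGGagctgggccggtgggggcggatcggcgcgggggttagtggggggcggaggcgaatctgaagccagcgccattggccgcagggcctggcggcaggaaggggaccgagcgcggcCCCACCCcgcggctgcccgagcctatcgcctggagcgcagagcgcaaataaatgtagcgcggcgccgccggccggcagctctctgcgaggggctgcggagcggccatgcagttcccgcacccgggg
The motifs searched were CCGGAA (ETS), AACAAT (SOX), ATCAAT (ONECUT), AACCGG (GRHL), CCCGCCC and CCCACCC (KLF), and ATTAAA (HHEX), and no match overlapped another. The Elf3 run held ATTAAA from position 38, AACCGG from position 183 and the reverse complement of CCCACCC from position 244, counted from its 5′ end. These motifs occurred in 13.9%, 6.83% and 17.5% of 32851 promoters of the same length. The Hhex run held the reverse complement of CCCGCCC from position 56 and CCCACCC from position 175, and CCCGCCC occurred in 25.6% of the promoters. GC content was 59% in the Elf3 run and 75.7% in the Hhex run, with a median of 52.7% over all promoters. ETS, SOX and ONECUT motifs, held by 14.9%, 10.7% and 7.54% of promoters, were not among the letters of these 2 windows, and the Sox4 window on chromosome 13 held none of the motifs. Promoters of 3 of the 9 genes were in the table used.

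In mm10, 8 of the genes were listed on chromosome 11 (Sox9, 112782224 to 112787760), 13 (Sox4, 28948919 to 28953713), 19 (Hhex, 37434810 to 37440731), 15 (Grhl2, 37233036 to 37363569), 1 (Elf3, 135253575 to 135258568), 2 (Ehf, 103263433 to 103303278), 14 (Klf5, 99298691 to 99315036) and 16 (Trp63, 25683763 to 25892102). For these 8, start and end were the same in GENCODE M21, whereas those of Onecut2 differed between the table and GENCODE M21 and are not given here. Exons of Sox4, Grhl2 and Elf3 each overlap 1 annotated gene on the opposite strand, and their levels are uncertain to that extent. The methods describe the bulk reads as strand-specific, but the strand setting of the counting was not given in the sources used here.

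The libraries of the hepatocyte table were checked against cell markers before the factors were compared, since the groups are defined by cell type. The libraries labelled Pri-Hep carried high levels of the ductal genes Spp1 (mean 3144 FPKM), Epcam (269 FPKM) and Krt19 (237 FPKM). Other ductal markers, Cftr at 0.111 FPKM and Sctr at 0, were low or at 0. Of the hepatocyte markers, Cps1 was at 1.07 FPKM, Apoa1 at 3.65 FPKM, Cyp3a11 at 4.93 FPKM, Cyp2e1 at 0.0100 FPKM and Serpina1c at 0, while Ttr (419 FPKM), Alb (112 FPKM), Fgb (46.9 FPKM), Ass1 (41.7 FPKM) and Hnf4a (24.2 FPKM) were present. Levels of the 10 hepatocyte markers summed to between 639 and 700.3 FPKM over all 12 libraries of that table, Pri-Hep and Hep-Orgs alike. The high ductal genes and the near absence of Cyp2e1, Serpina1c and Cps1 went against the label Pri-Hep. The Hep-Orgs had much the same levels. At P1 the means were 3055 FPKM for Spp1, 274 FPKM for Epcam and 239.5 FPKM for Krt19. Cps1 was at 0.915 FPKM there, Cyp2e1 and Serpina1c were at 0, and Alb was at 109 FPKM. Every value for Pri-Hep and Hep-Orgs refers to the libraries as labelled. Within a group, pairs of these libraries differed by 1.97 to 3.13 in chi-square per degree of freedom over 10950 genes, where sampling noise alone gives about 1, and pairs from different groups by 1.84 to 4.88. Depth was 14068906 to 27160365 recovered fragments in the hepatocyte table, and estimates were 37570000 to 39780000 for Cho-Orgs and 39580000 to 40500000 for Smart-Seq.

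The comparison of passages asked how the factors changed as Cho-Orgs were expanded. In the moderated F test of limma over P0, P5 and P10, 7 of the 8 expressed factors differed among passages, beside 82.8% of the 11593 genes tested, so that the share of factors was close to that of all genes. From P0 to P10, Onecut2 rose while Elf3, Sox9 and Ehf fell, so that 4 of 8 factors passed the test, beside 72.3% of all genes (41% higher and 31.3% lower). Between P5 and P10, 7 of 8 factors passed, 3 higher and 4 lower, beside 61.5% of all genes (31% higher and 30.5% lower). Between P0 and P5, 5 of 8 passed, 3 higher and 2 lower, beside 56.6% of all genes (34% higher and 22.6% lower). The libraries of both groups did not overlap for 5 of 8 factors between P0 and P10, 7 of 8 between P5 and P10 and 4 of 8 between P0 and P5, beside 75.1%, 74.2% and 61.5% of all genes. Changes are given on the scale of log2(FPKM + 1). The median log2 change over all genes tested was 0.07 from P0 to P10, 0.01 from P5 to P10 and 0.06 from P0 to P5, and the median of the 8 factors was 0.12, -0.19 and 0.14. The replicates may come from 3 mice or from 3 cultures and were fitted without pairing, so that p-values measure the spread between these libraries. The 3 comparisons share libraries, and in bulk RNA fewer cells of a type cannot be told apart from less RNA per cell.

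**Figure D1:**
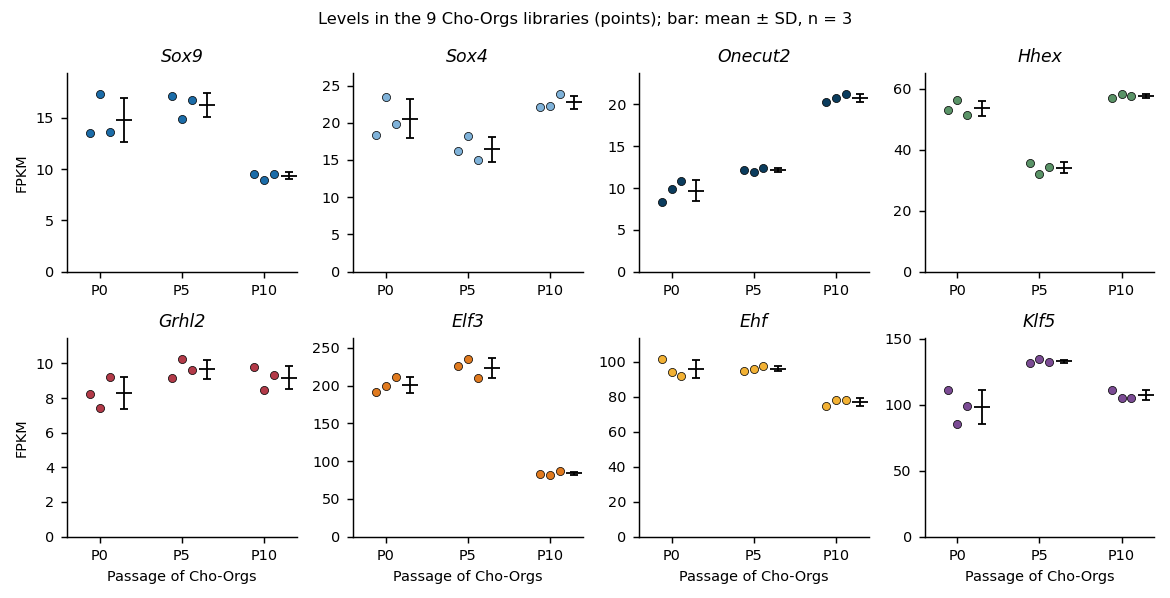
FPKM of each factor (vertical axis, from 0) in the 9 Cho-Orgs libraries by passage (horizontal axis); points are libraries and bars the mean ± SD of 3. Elf3 fell to between 81.5 and 86.4 FPKM at P10, Onecut2 rose to between 20.3 and 21.2 FPKM, and Hhex was lowest at P5.

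Among the biliary factors, Sox9 was measured at 13.5, 17.3 and 13.7 FPKM in the P0 libraries, at 17.1, 14.9 and 16.8 FPKM in those of P5 and at 9.57, 8.99 and 9.55 FPKM in those of P10. All P10 libraries lay below every earlier library, while P0 and P5 overlapped. The log2 change from P5 to P10 was -0.73 (SE 0.09, limma adjusted p = 9.27e-05), and from P0 to P10 it was -0.60 (SE 0.09, adjusted p = 2.08e-04). The difference between P0 and P5 did not pass the test (log2 0.13, adjusted p = 0.235), but it did without replicate 2 of P0, which held the highest Sox9 level of that group (log2 0.24, adjusted p = 0.0106).

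Sox4, the partner of Sox9 in bile duct formation, followed another course. Its levels were 18.3, 23.5 and 19.8 FPKM at P0, 16.1, 18.3 and 14.96 FPKM at P5, and 22.1, 22.3 and 23.8 FPKM at P10. The P5 libraries were the lowest, and P0 and P10 overlapped. Sox4 rose from P5 to P10 by 0.45 on the log2 scale (SE 0.09, limma adjusted p = 0.00236), and the change from P0 to P5 was -0.30 (SE 0.09, adjusted p = 0.0209). The latter call was lost when only P0 and P5 were fitted (adjusted p = 0.0507) and without P0 replicate 2, P5 replicate 1 or P5 replicate 3, where the adjusted p was 0.0518, 0.0602 and 0.0825. P10 against P0 gave 0.15 (adjusted p = 0.186), and 0.24 without P0 replicate 2 (adjusted p = 0.0210). The ratio of Sox9 to Sox4 within a library was 0.721 ± 0.0271 at P0, 1.00 ± 0.160 at P5 and 0.413 ± 0.0175 at P10 (mean ± SD, n = 3).

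Onecut2 was the factor that rose at both steps. It was measured at 8.32, 9.88 and 10.8 FPKM at P0, at 12.1, 11.9 and 12.5 FPKM at P5 and at 20.3, 20.8 and 21.2 FPKM at P10, without overlap between any passages. The log2 change was 0.31 from P0 to P5 (SE 0.08, limma adjusted p = 0.00718), 0.72 from P5 to P10 (SE 0.08, adjusted p = 3.76e-05) and 1.03 from P0 to P10 (SE 0.08, adjusted p = 1.45e-06). All 3 calls held under every alternative tried. Its paralog Onecut1 had means of 20.9, 11.9 and 21.8 FPKM in order of passage, and its change from P0 to P10 did not pass the test (log2 0.06, adjusted p = 0.337). The ratio of Onecut2 to Onecut1 was 0.464 ± 0.0745 at P0, 1.03 ± 0.0470 at P5 and 0.953 ± 0.0734 at P10.

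Hhex dipped at P5. Its levels were 53.1, 56.3 and 51.5 FPKM at P0, 35.7, 32.2 and 34.5 FPKM at P5, and 56.9, 58.2 and 57.7 FPKM at P10. The P5 libraries lay below all others and the P10 libraries just above those of P0. The log2 change was -0.64 from P0 to P5 (SE 0.05, limma adjusted p = 7.87e-06) and 0.74 from P5 to P10 (SE 0.05, adjusted p = 2.75e-06). P10 against P0 did not pass (log2 0.10, adjusted p = 0.107), but it did after rescaling to TPM (log2 0.13, adjusted p = 0.0449) and without P0 replicate 2 (log2 0.14, adjusted p = 0.0374).

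Of the epithelial factors, Elf3 was the most abundant at P0 and changed the most. It was measured at 190.8, 199.9 and 211.4 FPKM at P0, at 226.4, 234.7 and 209.4 FPKM at P5 and at 82.6, 81.5 and 86.4 FPKM at P10. Every P10 library was below every earlier one, while P0 and P5 overlapped. The log2 change was -1.41 from P5 to P10 (SE 0.06, limma adjusted p = 1.11e-07) and -1.25 from P0 to P10 (SE 0.06, adjusted p = 5.56e-08). P5 against P0 passed narrowly (log2 0.15, SE 0.06, adjusted p = 0.0446). That call was lost with a replicate block (adjusted p = 0.0754), with all genes above 0 (0.0665), with median-ratio size factors (log2 0.07, adjusted p = 0.362), without trend (0.0604), when only the 2 groups were fitted (0.0925), and without any 1 of 7 of the 9 libraries, all but P0 replicate 3 and P5 replicate 3, where the adjusted p was between 0.0570 and 0.150.

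Ehf, the other ETS factor, changed less than Elf3. Its levels were 101.4, 94.01 and 91.7 FPKM at P0, 94.6, 95.7 and 97.5 FPKM at P5, and 74.4, 78.2 and 78.0 FPKM at P10. As for Elf3, the P10 libraries were the lowest, and P0 and P5 overlapped. The log2 change was -0.32 from P5 to P10 (SE 0.05, limma adjusted p = 3.92e-04) and -0.31 from P0 to P10 (SE 0.05, adjusted p = 2.77e-04), whereas P5 against P0 gave 0.01 (adjusted p = 0.939). The ratio of Elf3 to Ehf in a library was 2.10 ± 0.213 at P0, 2.33 ± 0.161 at P5 and 1.09 ± 0.0385 at P10.

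Klf5 peaked at P5, with 111.0, 85.4 and 99.1 FPKM at P0, 131.9, 134.4 and 132.5 FPKM at P5, and 111.4, 104.9 and 105.4 FPKM at P10. The P5 libraries were above all others, and P0 and P10 overlapped. The log2 change was 0.44 from P0 to P5 (SE 0.08, limma adjusted p = 0.00133) and -0.31 from P5 to P10 (SE 0.08, adjusted p = 0.00836). P10 against P0 gave 0.13 (adjusted p = 0.178) and passed without P0 replicate 1 (log2 0.22, adjusted p = 0.00973).

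Grhl2 was the factor whose difference among passages did not pass the F test (adjusted p = 0.10001). It was measured at 8.23, 7.40 and 9.23 FPKM at P0, at 9.14, 10.2 and 9.63 FPKM at P5, and at 9.77, 8.44 and 9.33 FPKM at P10, and the passages overlapped. The log2 difference was 0.20 for P5 against P0 (SE 0.08, limma adjusted p = 0.0578) and 0.14 for P10 against P0 (SE 0.08, adjusted p = 0.163). Without P0 replicate 3, which had the highest level of its group, all 8 factors passed the F test, and the differences of Grhl2 were 0.28 (adjusted p = 0.0173) and 0.21 (adjusted p = 0.0422), and after rescaling to TPM the first was 0.26 (adjusted p = 0.0306). Its paralog Grhl1 rose over the same passages, from 1.96 to 5.68 FPKM between P0 and P10 (log2 1.17, SE 0.08, adjusted p = 5.32e-07). The ratio of Grhl2 to Grhl1 was 4.29 ± 0.956 at P0, 2.24 ± 0.315 at P5 and 1.63 ± 0.203 at P10.

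Trp63 was listed at 0 in all 9 Cho-Orgs libraries and in all 12 libraries of the hepatocyte table. In the latter table, a count of 0 allows up to 3 fragments, which equals 0.0131 to 0.0255 FPKM for a gene of this length, and covers counting error only. Trp63 was neither tested nor counted among the 8 expressed factors. Its relative Trp73 had group means of at most 0.00497 FPKM in the bulk libraries.

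**Figure D2:**
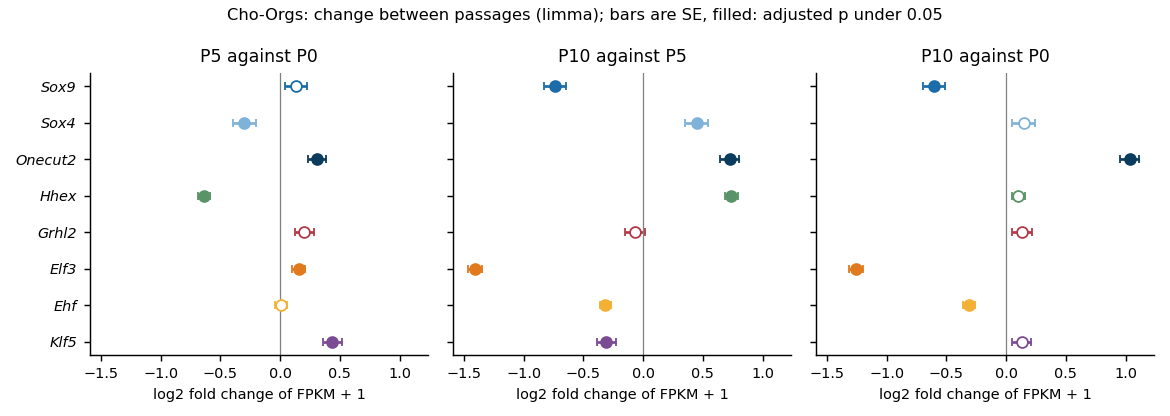
Log2 fold change of FPKM + 1 (horizontal axis) of each factor for 3 pairs of Cho-Orgs passages; points are limma estimates, bars their SE, and filled points have an adjusted p under 0.05. Onecut2 lies right of 0 in all 3 panels, and the other 7 factors lie on opposite sides of 0 in the first 2 panels.

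At each passage, Elf3, Klf5 and Ehf stood above Hhex, and Hhex above Sox4, Sox9, Onecut2 and Grhl2. Some neighbours overlapped in their libraries, namely Klf5 and Ehf at P0, Onecut2 and Grhl2 at P0, Sox4 and Sox9 at P5, and Sox9 and Grhl2 at P10. The order changed at P10, where Klf5 (107 ± 3.62 FPKM) was above Elf3 (83.5 ± 2.60 FPKM) and Onecut2 (20.8 ± 0.447 FPKM) was above Sox9 (9.37 ± 0.331 FPKM). Cell markers moved over the same passages. Hepatocyte markers summed to 6475 to 7345 FPKM at P0, 223 to 273 FPKM after 5 passages and 90.3 to 96.2 FPKM after 10, and 8 proliferation markers to 324 to 473, 181 to 186 and 80.1 to 86.9 FPKM. Cholangiocyte markers summed to 5204 to 6577, 3787 to 3984 and 3729 to 3761 FPKM. Stellate and mesenchymal markers summed to 60.8 to 75.7, 7.54 to 8.37 and 0.174 to 0.239 FPKM, with at least 7 of 8 under 1 FPKM at every passage. Macrophage markers summed to 43.1 to 48.8, 72.1 to 77.3 and 10.1 to 10.5 FPKM, with at least 6 of 8 under 1 FPKM. The 2 tested went opposite ways from P0 to P5, Cd68 upward (log2 1.27) and Lyz2 downward (log2 -3.80). Blood markers reached 3.00 FPKM and sinusoidal endothelial markers 0.778 FPKM in sum. The part of these markers in the changes of the factors was not tested.

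Genes that act beside the factors were followed as lists. Of 19 tested biliary and hepatobiliary regulators, 8 were higher and 6 lower at P10 than at P0, with a median log2 change of 0.05 beside 0.07 for all genes. The shares of all genes in this comparison were 41% higher and 31.3% lower, and the counts of every list below stand beside these shares. The largest changes in this list were falls of Prox1, a hepatocyte and lymphatic regulator, from 13.4 to 0.259 FPKM (log2 -3.48, limma adjusted p = 9.33e-08), of Foxa3 from 19.6 to 2.94 FPKM (log2 -2.39, adjusted p = 1.63e-08), of the Notch target Hey1 from 5.17 to 0.235 FPKM (log2 -2.29, adjusted p = 1.36e-06) and of Nr5a2 from 16.4 to 5.19 FPKM (log2 -1.48, adjusted p = 1.49e-07). Among 7 tested biliary genes linked to SOX9, 5 fell and 2 rose, beside 31.3% and 41% of all genes, with a median of -0.63. Cftr, the chloride channel of ducts, fell from 35.1 to 1.04 FPKM (log2 -4.02, adjusted p = 8.01e-07), Spp1 fell from 3682 to 527 FPKM (log2 -2.78, adjusted p = 4.66e-08) and Cd24a fell by 0.74 on the log2 scale (adjusted p = 8.71e-06), while Krt7, a duct keratin, rose from 248 to 920 FPKM (log2 1.89, adjusted p = 5.57e-09).

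Of 16 tested regulators of epithelial identity, 7 rose and 3 fell between P0 and P10 (median log2 0.12), beside 41% and 31.3% of all genes. Spdef, an ETS factor of secretory cells, fell from 7.07 to 0.00771 FPKM, with a wide error (log2 -2.49, SE 0.56, limma adjusted p = 0.00261). The zinc-finger factors Klf6 (log2 1.17, SE 0.07, adjusted p = 3.03e-07) and Klf3 (log2 0.98, SE 0.06, adjusted p = 2.17e-07) rose. Counted over 17 tested paralogs of the factors, 8 rose and 3 fell, with a median of 0.12, and the share that rose was near that of all genes. For GRHL2 target and junction genes, 4 of 11 rose and 1 fell (median log2 0.18), beside 72.3% of all genes that changed in either direction, and those past the test included the claudin genes Cldn4 (log2 0.80, adjusted p = 9.82e-05) and Cldn3 (log2 0.36, adjusted p = 0.00236) and the adhesion gene Epcam (log2 -0.79, adjusted p = 7.44e-07). None of the 6 repressors of the epithelial state, which include Zeb2 and Snai1, reached the level needed for the test, and their levels summed to at most 0.265 FPKM in Cho-Orgs.

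Although Trp63 was at 0, genes linked to p63 in stratified epithelia were present. Of 9 tested, 8 rose between P0 and P10, beside 41% of all genes, with a median log2 change of 1.09. Like the others, this list was chosen with earlier results of these data known, so the count is a description. Of its 14 genes, 7 had means under 1 FPKM at P0 and 5 at P10, so some entered the test through later passages. From P5 to P10, 4 were higher and 3 lower, beside 31% and 30.5% of all genes, with a median log2 change of 0.02. The 3 were Dsg3 (log2 -3.26), Krt6a (log2 -1.40) and Itga6 (log2 -0.39). Lor, a protein of the cornified envelope, rose from 0.634 to 102.0 FPKM (log2 5.98, limma adjusted p = 1.10e-10), Sprr1a from 121 to 802 FPKM (log2 2.76, adjusted p = 3.60e-07), Ivl from 8.10 to 52.5 FPKM (log2 2.56, adjusted p = 3.70e-08) and the integrin gene Itgb4 from 25.5 to 72.0 FPKM (log2 1.46, adjusted p = 1.15e-08). The basal keratins Krt5 and Krt14 were at or under 0.0718 FPKM at every passage. In the p53 list, which holds p53 relatives and linked genes, Trp53 (log2 0.96, adjusted p = 5.16e-06), Mdm2 (log2 0.79, adjusted p = 1.24e-06) and Cdkn1a (log2 0.46, adjusted p = 0.0114) rose, 3 of 3 tested, beside 41% of all genes.

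In the hepatocyte table, the question was whether the factors differed between the libraries labelled Pri-Hep and Hep-Orgs, or between early and late Hep-Orgs. None of the 8 expressed factors passed the test in any of these comparisons. No gene of 10986 tested passed for all Hep-Orgs against Pri-Hep or for P10 against P1 (0% of genes, with 966 and 986 genes at an unadjusted p under 0.05), and 2 genes passed the F test over the 4 groups (0.0182%). Limma-voom on the recovered fragments called 12, 29 and 65 genes in these comparisons and 0 of the 8 factors. No factor had an unadjusted p under 0.05, and the lowest was 0.0696. The log2 differences of the factors were between -0.05 and 0.04 for all Hep-Orgs against Pri-Hep (SE 0.02 to 0.05) and between -0.12 and 0.04 for P10 against P1 (SE 0.02 to 0.06).

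The levels themselves hardly varied over the 12 libraries. Ehf was at 129.0 to 137.4 FPKM, Hhex at 103.4 to 116.5 FPKM and Elf3 at 103.9 to 113.5 FPKM. Onecut2 was at 40.0 to 43.5 FPKM, Klf5 at 34.5 to 37.2 FPKM and Sox9 at 27.7 to 29.8 FPKM. The lowest factors were Grhl2 at 9.01 to 10.02 FPKM and Sox4 at 4.78 to 5.89 FPKM. In all 4 groups the order was Ehf, Hhex, Elf3, Onecut2, Klf5, Sox9, Grhl2 and Sox4, and only Hhex and Elf3 overlapped as neighbours. The coefficient of variation over the 12 libraries was between 1.74% (Ehf) and 6.95% (Sox4), where counting error alone gives between 0.860% (Ehf) and 4.61% (Sox4). For Sox9 the 2 values were 2.09% and 2.16%, with 1607 to 3310 fragments behind each level. Sox4 rested on 322 to 735 fragments, the fewest among the 8.

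By library, the Pri-Hep replicates held Sox9 at 28.1 to 29.0 FPKM, and the Hep-Orgs libraries at 28.3 to 29.4 FPKM at P1, 27.97 to 28.7 FPKM at P5 and 27.7 to 29.8 FPKM at P10. The groups overlapped for Sox9, as they did for Onecut2 at 40.9 to 43.5 FPKM in Pri-Hep and 40.0 to 42.6 FPKM in Hep-Orgs. Sox4 had a mean of 5.70 ± 0.155 FPKM at P1 and 5.17 ± 0.626 FPKM at P10, a difference carried by 2 P10 libraries at 4.78 and 4.83 FPKM while the third was at 5.89 FPKM. For Ehf, the P10 libraries (134.5 to 135.0 FPKM) lay above those of P1 (129.0 to 133.0 FPKM). This was the 1 of 8 factors without overlap between P1 and P10, beside 16.3% of all genes tested. Ehf was also the 1 of 8 factors without overlap between P5 (130.2 to 132.9 FPKM) and P10, beside 17.1% of all genes tested.

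In the Smart-Seq libraries, the shapes of the first culture were compared, and all 8 listed factors were higher in the round-like than in the grape-like library. With 1 library per shape there is no replicate and no test. The 95% intervals below cover counting error only, and since the cDNA was amplified they are narrower than the error of the measurement. Between round-like and grape-like organoids, 7 of 8 factors were at least 2-fold higher on the scale of FPKM + 1, beside 8.82% of the 12595 genes that reached 1 FPKM in any shape. All 8 were higher, beside 58% of genes. The median log2 ratio of the factors was 2.17, beside 0.13 for all genes. For intermediate against grape-like organoids, 7 of 8 exceeded 2-fold as well, beside 7.15% of genes, and all 8 were higher, beside 46.8% (median 1.86 beside -0.03). Between round-like and intermediate organoids, 1 of 8 exceeded 2-fold, beside 2.54% of genes, and 7 of 8 were higher, beside 62.3% (median 0.50 beside 0.12).

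**Figure D3:**
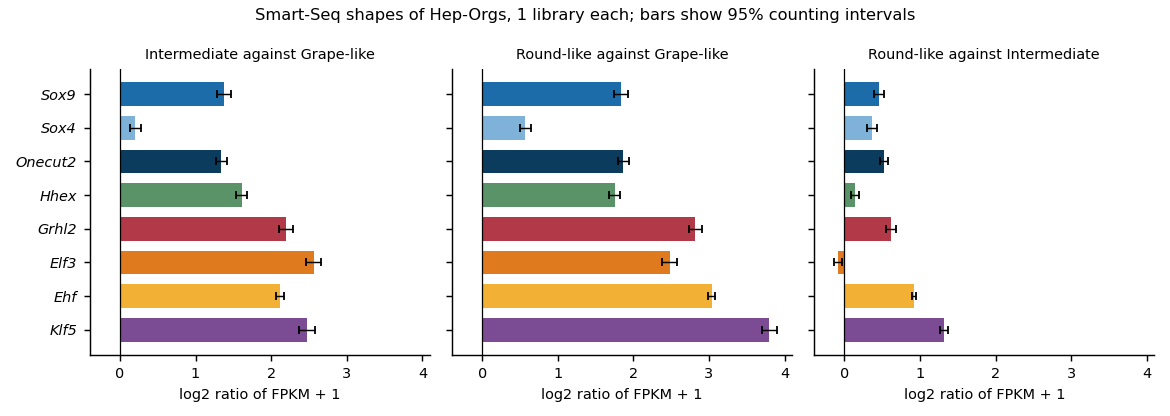
Log2 ratio of FPKM + 1 (horizontal axis) of 8 factors between pairs of Smart-Seq libraries, 1 library per shape; bars are ratios and lines the 95% counting intervals. Klf5 reaches 3.79 between round-like and grape-like organoids, and Elf3 lies below 0 between round-like and intermediate ones.

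Klf5 had the highest ratio, with 1.89 FPKM in grape-like, 15.1 FPKM in intermediate and 39.1 FPKM in round-like organoids. Its log2 ratio of round-like to grape-like was 3.79 (3.70 to 3.89), higher than that of 99.8% of genes. Ehf stood at 16.9, 76.6 and 145.9 FPKM, which gave a ratio of 3.04 (2.99 to 3.08). Both were higher again in round-like than in intermediate organoids, by 1.32 (1.26 to 1.37) for Klf5 and 0.92 (0.89 to 0.95) for Ehf.

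Grhl2 was at 0.581 FPKM in grape-like organoids, on about 198 fragments, and at 6.24 and 10.1 FPKM in the other shapes. Its log2 ratio of round-like to grape-like was 2.82 (2.73 to 2.90) with the pseudocount of 1, and 3.91 with a pseudocount of 0.1, so that its place among the factors depends on the pseudocount. Elf3 stood at 8.31, 53.9 and 50.9 FPKM. Its levels in the latter shapes were close, with 2.56 (2.46 to 2.66) over the grape-like library and -0.08 (-0.14 to -0.02) between round-like and intermediate.

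The biliary factors differed less. Sox9 was at 6.22, 17.7 and 24.8 FPKM, with a log2 ratio of round-like to grape-like of 1.84 (1.75 to 1.92). Onecut2 was at 1.93, 6.42 and 9.69 FPKM (1.87, 1.80 to 1.94), and Hhex at 25.5, 79.9 and 88.2 FPKM (1.75, 1.68 to 1.82). The difference of Hhex between round-like and intermediate was 0.14 (0.09 to 0.19) and turned to -0.01 with median-ratio size factors, which centre the median of all genes, itself at 0.12 in that pair. Sox4 changed the least, at 12.5, 14.5 and 19.0 FPKM, with a ratio of 0.57 (0.50 to 0.64) that stayed under 2-fold.

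Markers of other cells were highest in grape-like organoids. In the order grape-like, intermediate and round-like, macrophage markers summed to 8787, 2560 and 1377 FPKM, stellate and mesenchymal markers to 1362, 351 and 303 FPKM, and endothelial markers to 131, 54.6 and 23.9 FPKM. More than 2-fold lower in round-like than in grape-like organoids were 8 of 8, 7 of 8 and 7 of 8 of them, beside 12.9% of genes. Hepatocyte markers summed to 5317, 8614 and 1296 FPKM and cholangiocyte markers to 938, 3475 and 2856 FPKM. Between round-like and intermediate organoids, the median log2 ratio of 9 cholangiocyte markers was 0.35, although their sum was lower. The part of these markers in the ratios of the factors was not tested. Of the 6 repressors of the epithelial state, 4 could be compared and all 4 were more than 2-fold lower in round-like than in grape-like organoids, beside 12.9% of genes, with Zeb2 at 19.1, 4.42 and 4.46 FPKM. All 11 compared GRHL2 target and junction genes were more than 2-fold higher in round-like than in grape-like organoids, beside 8.82% of all genes, with a median log2 ratio of 2.44. Among the other lists, 5 of 19 biliary regulators, 7 of 16 epithelial regulators, 6 of 7 genes linked to SOX9, 5 of 6 squamous genes, 4 of 17 paralogs and 0 of 3 genes of the p53 list were more than 2-fold higher in that pair, beside 8.82% of all genes.

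Since the 3 tables were normalized separately, levels were compared between them only as ranks within a library, among 16695 shared symbols. Ehf, Elf3, Klf5 and Hhex ranked high in the bulk tables, with Ehf at percentiles 98.5 to 98.6 in the hepatocyte table and 95.3 to 96.4 in Cho-Orgs. Onecut2 was at percentiles 93.9 to 94.5 in the former and 65.5 to 82.1 in the latter, and Sox9 at 90.7 to 91.5 and 67.1 to 79.9. Sox4 and Klf5 went the other way, Sox4 at 58.4 to 62.6 in the hepatocyte table and 76.7 to 84.7 in Cho-Orgs, and Klf5 at 93.0 to 93.5 and 95.9 to 97.6. The ranges of Elf3 overlapped between the bulk tables, and those of the other expressed factors did not. The share of all shared symbols without overlap was not determined, so this is not read as a trait of the factors. In the grape-like library, Grhl2 was at percentile 28.8, Klf5 at 38.9 and Onecut2 at 39.03, below all their bulk values. The same held for Sox9 at 56.8, Elf3 at 62.5, Ehf at 77.1 and Hhex at 84.4, but not for Sox4 at 70.9. The share of all symbols below their bulk ranks was not determined.

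**Figure D4:**
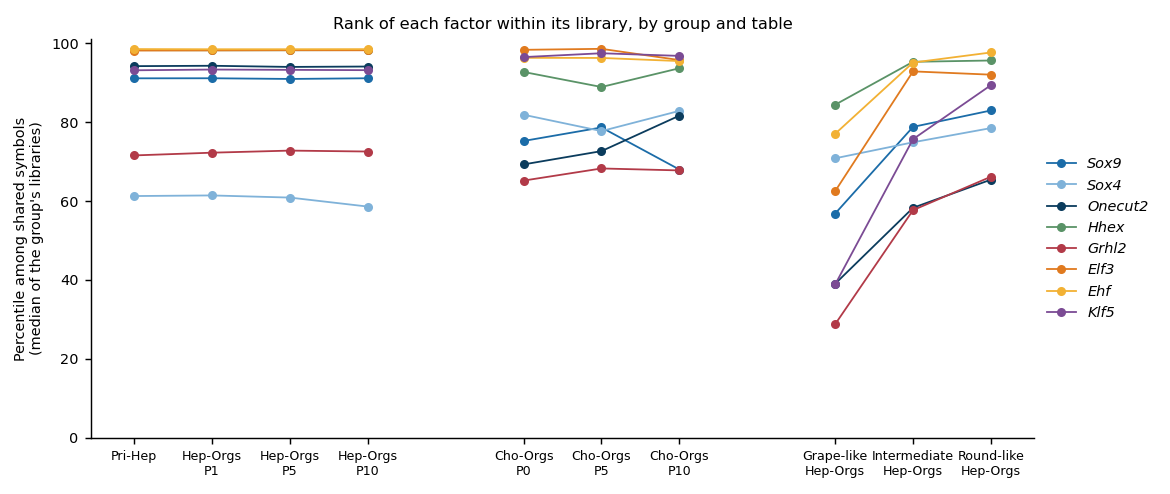
Percentile of each factor among 16695 symbols shared by the 3 tables (vertical axis) by group (horizontal axis); points are medians of the libraries of a group and lines join groups of 1 table. The lines of the hepatocyte table are nearly flat, Onecut2 and Sox9 cross in Cho-Orgs, and within the Smart-Seq table all 8 factors are lowest in the grape-like library.

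Ratios between factors within a library do not depend on the library total, but they depend on the gene lengths used for FPKM. Only the hepatocyte table listed its lengths, so ratios in different tables may rest on different lengths. Elf3 to Ehf was 0.801 ± 0.0446 in Pri-Hep and 0.819 to 0.840 as group means in Hep-Orgs, and it was above 1 in all 9 Cho-Orgs libraries (1.04 to 2.45) and below 1 in the 3 Smart-Seq libraries (0.492, 0.703 and 0.349). Sox9 to Sox4 had group means of 5.05 to 5.59 in the hepatocyte table, 0.413 to 1.00 in Cho-Orgs, and was 0.498 in grape-like, 1.22 in intermediate and 1.30 in round-like organoids. Onecut2 to Onecut1 had group means of 2.85 to 3.02 in the hepatocyte table and of 0.464 to 1.03 in Cho-Orgs.

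**Figure D5:**
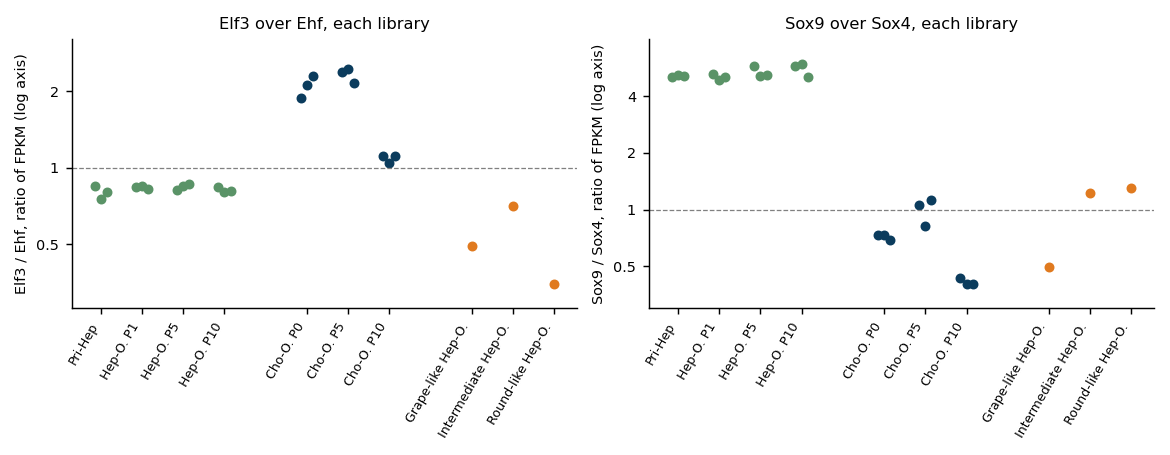
Ratio of FPKM of Elf3 to Ehf (left) and of Sox9 to Sox4 (right) in each library (points, log axis) by group; green is the hepatocyte table, blue Cho-Orgs and orange Smart-Seq, and the dashed line is a ratio of 1. In Cho-Orgs at P10, Elf3 to Ehf lies between 1.04 and 1.11 and Sox9 to Sox4 between 0.402 and 0.433.

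The genes most like each factor over the 9 Cho-Orgs libraries were ranked by Pearson's r of log2(FPKM + 1) among the genes tested, a description in which 3 passages of 3 libraries carry most of the variation. Onecut2 was closest to Slc30a4 (r = 0.999), Cdkn2b (r = 0.998) and Nupr1 (r = 0.997). Cdkn2b, an inhibitor of cyclin-dependent kinases, was at 18.2, 29.9 and 87.4 FPKM at P0, P5 and P10. Elf3 was closest to Hexa (r = 0.999), Ak4 (r = 0.998) and Mien1 (r = 0.995), and Hhex to Clu (r = 0.997), Tex261 (r = 0.988) and Dmwd (r = 0.985). Clu, which encodes clusterin, was at 6002, 2558 and 6510 FPKM, with the same low point at P5 as Hhex. Sox9 was closest to Echdc3 (r = 0.990), Ehf to Gstm3 (r = 0.990), Klf5 to Stxbp5 (r = 0.988), Grhl2 to Prkaa1 (r = 0.971) and Sox4 to Il7 (r = 0.964).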

How the data were processed

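Bulk poly(A) libraries and Smart-Seq libraries were analysed from 3 tables of FPKM that the authors deposited, one per experiment. Per the submitters' processing notes, reads were aligned to mm10, counted with featureCounts 2.0.3 and handled with edgeR 3.40.2. The aligner was not given in the sources used here. In the hepatocyte table, FPKM times gene length gave whole fragments (tolerance 0.02) for all values, and the fragments per library were recovered from it. For the other tables, which list no lengths, approximate depths came from the spacing of low values. The lengths for this were those of genes with a sole transcript in GENCODE M21. Fragments of the factors in those tables used the lengths of the hepatocyte table.

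Within a table, a gene entered the test when 3 or more libraries reached an FPKM of 1, and was analysed as log2(FPKM + 1), a scale that understates changes of low genes, with limma 3.58.1 (lmFit, eBayes with trend, two-sided, all groups of a table together) in R 4.3.3. Benjamini-Hochberg adjustment was over all genes tested, with a threshold of 0.05. The scripts were tested on simulated data. Tables were never fitted together. Smart-Seq libraries were compared by log2 ratio with 95% counting intervals, a normal approximation. Python 3.11.15 with numpy 2.4.6, pandas 2.3.3 and matplotlib 3.10.9 was used. The members and the 8 gene lists and 7 marker lists were chosen with earlier results of these data known. All members are named, and from each list up to 4 genes past the threshold with the largest change from P0 to P10; 1 of these is not reported here. Alternatives were other pseudocounts, filters, scalings and fits, a replicate block and leaving out each library. Coordinates were those of the hepatocyte table.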

Additional observations from a re-analysis of the deposited data

Results flagged for a closer look

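For Ehf, every library of P10 lay above every library of P5 in Hep-Orgs and below every library of P5 in Cho-Orgs. Ehf passed no test in the hepatocyte table (limma F test, adjusted p = 0.661), where 17.1% of all genes did not overlap between these passages, beside 74.2% in Cho-Orgs. The difference of the log2 values of the means was 0.0335 in Hep-Orgs, where the P5 libraries were at 130.2 to 132.9 FPKM and the P10 libraries at 134.5 to 135.0 FPKM. It was -0.316 in Cho-Orgs. The difference between the cultures was not tested, since their tables were normalized separately. Ehf was the 1 of 8 expressed factors for which this occurred. The share of all genes with such opposite directions was not determined.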

How the results depend on the processing

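The labels repeat the same replicate numbers at each passage, and the main fit did not pair them. No pairing by number was seen in the correlations, which does not show that the libraries were unpaired. The median correlation of deviations from the group means was -0.0063 over 9 pairs of Cho-Orgs libraries with the same number and -0.0030 over 18 other pairs, and -0.0016 and -0.0018 in the hepatocyte table. A replicate block gave 8278 genes for Cho-Orgs P10 against P0, beside 8384 without it, took the Elf3 call of P5 against P0 away (adjusted p = 0.0754) and changed no other call of a factor. The 2 genes that differed among Hep-Orgs and Pri-Hep became 0 with the block or without trend and 65 with limma-voom, which called 12 genes for all Hep-Orgs against Pri-Hep and 29 for P10 against P1; with all genes above 0 the first of these was 1. Leaving out 1 library gave 0 to 3 genes for the difference among groups and 0 to 2 for P10 against P1. For Cho-Orgs P5 against P0, the number of factors past the test was 3 when only these groups were fitted and 3 to 6 when 1 library was left out. The log2 change of Ehf between P0 and P5, close to 0, reversed to -0.0833 with median-ratio size factors and ranged from -0.0250 to 0.0468 when 1 library was left out. With those factors, 47.2% in place of 60.04% of the genes called between P0 and P5 were higher at P5. The causes were not tested. Every call of a factor between P5 and P10 held under all alternatives, as did those of Elf3, Onecut2, Sox9 and Ehf between P0 and P10. Median ranks were at percentile 92.8 among shared symbols and 94.96 among all genes listed, and the number of factors past 2-fold in Smart-Seq was 7 in each setting. The values are limited by 3 libraries per group, or 1 in Smart-Seq, and by depths that are approximate outside the hepatocyte table.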
